A study of Mus musculus with 29 samples.

Results

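The genes described here are 83 nuclear genes for the protein subunits of the mitochondrial oxidative phosphorylation machinery, measured by RNA sequencing in mouse mammary fat under 6 diets. They were taken by symbol from a table of 30818 genes: names of the Nduf subunit families, Sdha to Sdhd, Uqcr, Cyc1, Cycs, Cox4 to Cox8 and Atp5 matched 90 genes, of which 6 annotated as pseudogenes were left out. A member also had to reach a deposited log2 value of 6 in 4 or more of the 29 libraries, and 1 gene, Cox6a2, did not. The last genes inside this limit were Cox6b2, which reached the level in 18 libraries, Cox7a1 in 20 and Cox4i2 in 28, and Cox6a2 reached it in 3. By the complex they belong to, the members were 35 subunits of complex I, 4 of complex II, 9 of complex III, cytochrome c, 15 of complex IV and 15 of complex V, with 4 associated or related genes (Ndufa4l2, Cox7a2l, Atp5s and Atp5sl) kept apart. Subunits encoded by mitochondrial DNA were not analysed here.

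Oxidative phosphorylation makes ATP in the inner mitochondrial membrane. Complex I takes electrons from NADH and complex II takes them from succinate, both pass them to ubiquinone, and complex III hands them through cytochrome c to complex IV, which reduces oxygen. Complexes I, III and IV pump protons as they do so, and complex V, the ATP synthase, lets the protons back to make ATP. In white fat, mitochondria also supply substrates for lipid synthesis, and in brown and beige fat the uncoupling protein Ucp1 lets protons return without making ATP, so that the energy leaves as heat.

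C57BL/6N mice, wild type in every group by the labels, received the Control diet D12450J (Control, 5 libraries), or the high-fat diet D12492, with 60% fat, until they were obese; the labels give neither age nor sex. From there 5 libraries come from mice kept obese on that diet (Obese). Another 5 come from mice moved to low-fat food eaten freely (LFD) and 5 from mice given low-fat food at 30% fewer calories (LFCR). A Mediterranean-style food, also at 30% fewer calories, gives 4 libraries (MCR), and calories restricted intermittently, on a schedule the labels leave out, give 5 (ICR). Injection came 25 weeks after randomization: every mouse, Control mice included, was injected with E0771 mouse mammary cancer cells in mammary fat pad 4, and the tissue sequenced is the opposite, uninjected pad 9 taken at the endpoint. The labels name that tissue as normal mammary tissue, but they also carry the tumour cell line's name, and every sample title begins with the word tumor. The tissue label was followed here. Nothing in the labels says that each library is another mouse, so each p-value rests on the spread among libraries, which may be partly technical.

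Library totals, recovered from the values as described under processing, ran from 16403903 to 49026986 reads with a median of 37270234. The column names give 6 sequencing lanes, with at most 1 library of a group in each, and the 5 libraries of lane 4 had the lowest totals (at most 18212783 reads, against at least 29008340 elsewhere). Adipocyte genes dominated as the tissue label implies: the mean deposited log2 value over 12 mature adipocyte markers was 13.96 to 16.52 per library, against 9.62 to 11.8 over 10 luminal epithelial markers. A set of 8 libraries stood apart from the rest of their groups by B cell transcripts, with a mean over 10 B cell markers of 5.82 to 6.73 against 10.2 to 12.8 in the other 21. MCR supplies 3 of them (1, 3 and 4), LFCR 2 (1 and 3), Obese 2 (1 and 5) and LFD 1 (its library 1), so that MCR has 1 library outside the set. Skeletal muscle markers averaged 7 or more in 7 libraries: Obese 2, LFD 1, 3 and 5, LFCR 5, MCR 3 and ICR 4. In bulk tissue, fewer cells of a type and less RNA per cell cannot be told apart.

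Values below are normalized counts, obtained by undoing the transform of the deposited log2 values, and differences are on the deposited log2 scale. Per kilobase of annotated exon, the most abundant members over all libraries were Cox8a, the ubiquitous form of the smallest cytochrome oxidase subunit, with 10477 normalized counts per kilobase, and Atp5b, the catalytic beta subunit of ATP synthase, with 8482. The lowest were Cox6b2, a form of Cox6b best known from testis, with 39.1 counts per kilobase, and Cox4i2, a form of Cox4 known from lung and from low oxygen, with 82.7. All members together took 0.650% ± 0.0436 (SD, n = 5) of the normalized counts in Obese and 0.748% ± 0.168 (SD, n = 5) in Control. The share was 0.826% ± 0.154 (SD, n = 5) in LFD, 0.796% ± 0.0664 (SD, n = 5) in ICR, 1.06% ± 0.155 (SD, n = 5) in LFCR and 1.07% ± 0.135 (SD, n = 4) in MCR. LFCR and MCR, the continuous restriction groups, had the highest mean shares, and Obese the lowest. Over the 6 groups, 73 of 83 members differed by limma's moderated F-test at an adjusted p under 0.05, where 33.3% of all 19387 genes tested did.

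**Figure D1:**
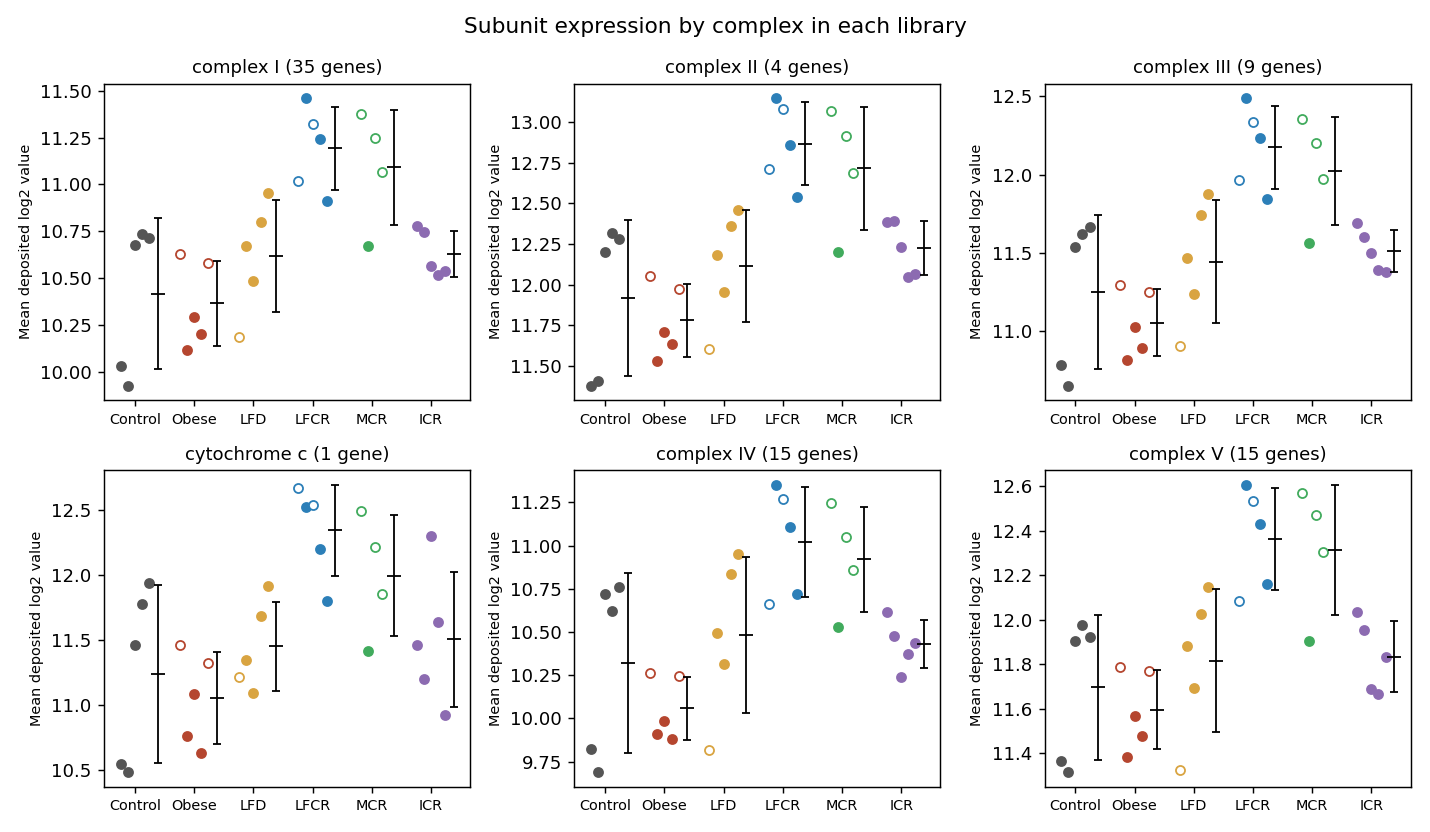
Mean deposited log2 value of the subunits of each complex in each library, with 1 panel per complex, 1 point per library and, beside each group, the group mean with its SD. Open points are the 8 libraries low in B cell transcripts. In every panel the LFCR mean is the highest of the 6 and the Obese mean the lowest, and for complex II the group means run from 11.78 (Obese) to 12.87 (LFCR).

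The members' promoters are shown because most of them rose together in LFCR against Obese, described below, while a few did not pass the test. Of those shown, Atp5g2 and Atp5g3 did not pass with all libraries and did pass without LFCR 1. RefSeq promoter windows (GRCm38.p6) were matched by symbol for 66 of the 83 members, and the 250 bases before each start were searched on both strands for 3 motifs of factors known to control respiratory genes.
The NRF1 motif, searched as GCGCA followed by 1 base of any kind and GCGC, was in 13 of 66 members (19.7%) and in 4.23% of the 27025 genes with a window.
The GABP motif CCGGAAG was in 12 of 66 (18.2%) against 7.83%, and the estrogen-related receptor site AAGGTCA was in 5 of 66 (7.58%) against 4.70%.
Among members that rose in LFCR against Obese, the NRF1 motif was in 11 of 57, and among those that did not pass it was in 2 of 9, so both kinds of member held it.
The motifs do not overlap each other in the sequences printed, and a match is only a match of letters. Starts are those of the RefSeq windows. In GENCODE vM21, Sdha begins at position 74350280 and Atp5g2 at 102672352, so Sdha site 3 and the Atp5g2 site lie inside the annotated genes.
Capitals mark the matched letters, and sequences run 5′ to 3′ on the strand of the gene, which is the minus strand for all of them.
Sdha, which rose, held the NRF1 motif at 3 places, printed with their surroundings of 30 bases each, at chr13:74350319-74350348, chr13:74350276-74350305 and chr13:74350241-74350270, where the motif begins 98, 55 and 10 bases before the start:
Sdha site 1: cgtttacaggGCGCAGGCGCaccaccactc
Sdha site 2: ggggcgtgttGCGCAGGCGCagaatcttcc
Sdha site 3: cgacacccgcgcgactcggtGCGCAAGCGC
Atp5g2, a gene for the ATP synthase c subunit that did not pass, held 1 such motif 42 bases before its start, at chr15:102671070-102671099:
Atp5g2 site: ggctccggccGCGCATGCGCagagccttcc
Ndufb6 of complex I, which rose, held the GABP motif on the other strand in its window at chr4:40279422-40279671:
Ndufb6 window: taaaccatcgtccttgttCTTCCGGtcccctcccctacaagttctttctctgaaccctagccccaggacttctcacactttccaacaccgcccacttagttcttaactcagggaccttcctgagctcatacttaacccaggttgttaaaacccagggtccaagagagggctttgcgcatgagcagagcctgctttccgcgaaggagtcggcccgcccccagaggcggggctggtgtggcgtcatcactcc
Atp5g3, another c subunit gene, held the estrogen-related receptor site on the other strand in its window at chr2:73911327-73911576:
Atp5g3 window: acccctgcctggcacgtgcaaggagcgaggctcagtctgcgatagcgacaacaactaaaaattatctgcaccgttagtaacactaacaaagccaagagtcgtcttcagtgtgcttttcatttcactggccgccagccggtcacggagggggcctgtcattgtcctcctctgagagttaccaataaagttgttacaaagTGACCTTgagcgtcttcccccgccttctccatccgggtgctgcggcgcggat
Cox8a and Cox8b are the ubiquitous and the muscle form of the same subunit and are compared again below, and neither window, at chr19:7217617-7217866 and chr7:140900447-140900696, held any of the 3 motifs in these spellings:
Cox8a window: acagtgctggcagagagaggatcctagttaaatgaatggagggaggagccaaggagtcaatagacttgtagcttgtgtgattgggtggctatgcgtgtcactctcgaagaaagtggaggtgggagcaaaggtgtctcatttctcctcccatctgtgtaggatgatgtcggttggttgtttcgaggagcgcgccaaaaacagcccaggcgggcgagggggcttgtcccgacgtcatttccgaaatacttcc
Cox8b window: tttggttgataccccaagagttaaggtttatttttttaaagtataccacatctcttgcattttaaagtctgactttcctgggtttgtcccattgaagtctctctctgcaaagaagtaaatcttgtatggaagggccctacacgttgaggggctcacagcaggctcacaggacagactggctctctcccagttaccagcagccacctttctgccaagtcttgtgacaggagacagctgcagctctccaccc

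Few subunits differed between obese and lean mice. Against Control, 1 member rose and 1 fell in Obese (limma, adjusted p under 0.05), where 9.44% of all genes rose and 3.44% fell, and the median difference over the members was -0.08 on the log2 scale against -0.03 over all genes. The gene that rose was Ndufa4l2, a relative of the complex IV subunit Ndufa4 known as a target of the hypoxia response. It had 78.9, 75.6, 154, 126 and 82.1 normalized counts in the Control libraries and 309, 194, 219, 157 and 346 in the Obese ones. Every Obese library was above every Control library, which 6.32% of all genes also showed, and the log2 difference was 1.07 ± 0.21 (SE, adjusted p = 0.00234). The gene that fell was Cox8b, the heart and muscle form of Cox8 that is also abundant in brown and beige fat. Its counts were 231, 60.2, 991, 542 and 1105 in Control and 62.8, 107, 99.2, 66.5 and 82.3 in Obese. Control 2 lay below every Obese library and the other 4 above, so the groups overlap, and the log2 difference was -1.99 ± 0.60 (SE, adjusted p = 0.03). The Cox8b call was lost in 10 of the alternative fits, with adjusted p up to 0.142, among them those without Control 3, 4 or 5 or Obese 1 or 5.

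No other member passed. Among them the highest and lowest differences were 0.34 for Ndufb3 and 0.25 for Ndufb4, accessory subunits of complex I, -0.66 for Cox7a1, the muscle form of Cox7a, and -0.50 for Atp5sl, with adjusted p from 0.119 to 0.439. Sdha, the flavoprotein that oxidizes succinate, differed by -0.25 ± 0.20 (SE, adjusted p = 0.402), with a 95% interval of -0.66 to 0.16. The Control libraries themselves fell apart for most members: the mean over all 83 members was 10.26 and 10.35 in Control 2 and 1 and 11.03 to 11.07 in Control 3, 4 and 5. The mature adipocyte list moved with that split, from 13.96 and 14.14 in those low libraries to 14.85 or more in the others, and its part in the result was not tested. With the adipocyte list mean as a covariate, a fit chosen after seeing the data, 18 members fell and 1 rose in Obese. The share of all genes called in that fit is not given here, so the count need not be particular to the members. Within the 4 lanes that hold both groups, 4 to 77 members were higher in Obese. Here and below, each lane count sets 1 library against 1 other. Lanes 6 and 5, with Control 1 and 2, had 77 and 69 members higher in Obese. Lanes 3 and 4, with Control 4 and 3, had 4 each, so these counts follow the same split of the Control libraries.

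Most of the respiratory chain was higher after low-fat calorie restriction. Against mice that stayed obese, 70 of 83 members rose and none fell in LFCR (limma, adjusted p under 0.05), where 11.9% of all genes rose and 9.42% fell. The median member was 0.89 higher on the log2 scale, or 1.86-fold, while the median over all genes was -0.04. By complex, 32 of 35 subunits of complex I rose, with a median log2 difference of 0.82, 4 of 4 of complex II (1.12), 9 of 9 of complex III (1.17), cytochrome c (1.29), 12 of 15 of complex IV (0.98) and 11 of 15 of complex V (0.79). Of the 4 associated genes, Atp5s, a coupling factor of ATP synthase, rose by 0.41. In 61 members every LFCR library was above every Obese library, against 8.82% of all genes. In the 4 lanes with both groups, 67 to 83 members were higher in LFCR, with medians of 0.40 to 1.38.

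**Figure D2:**
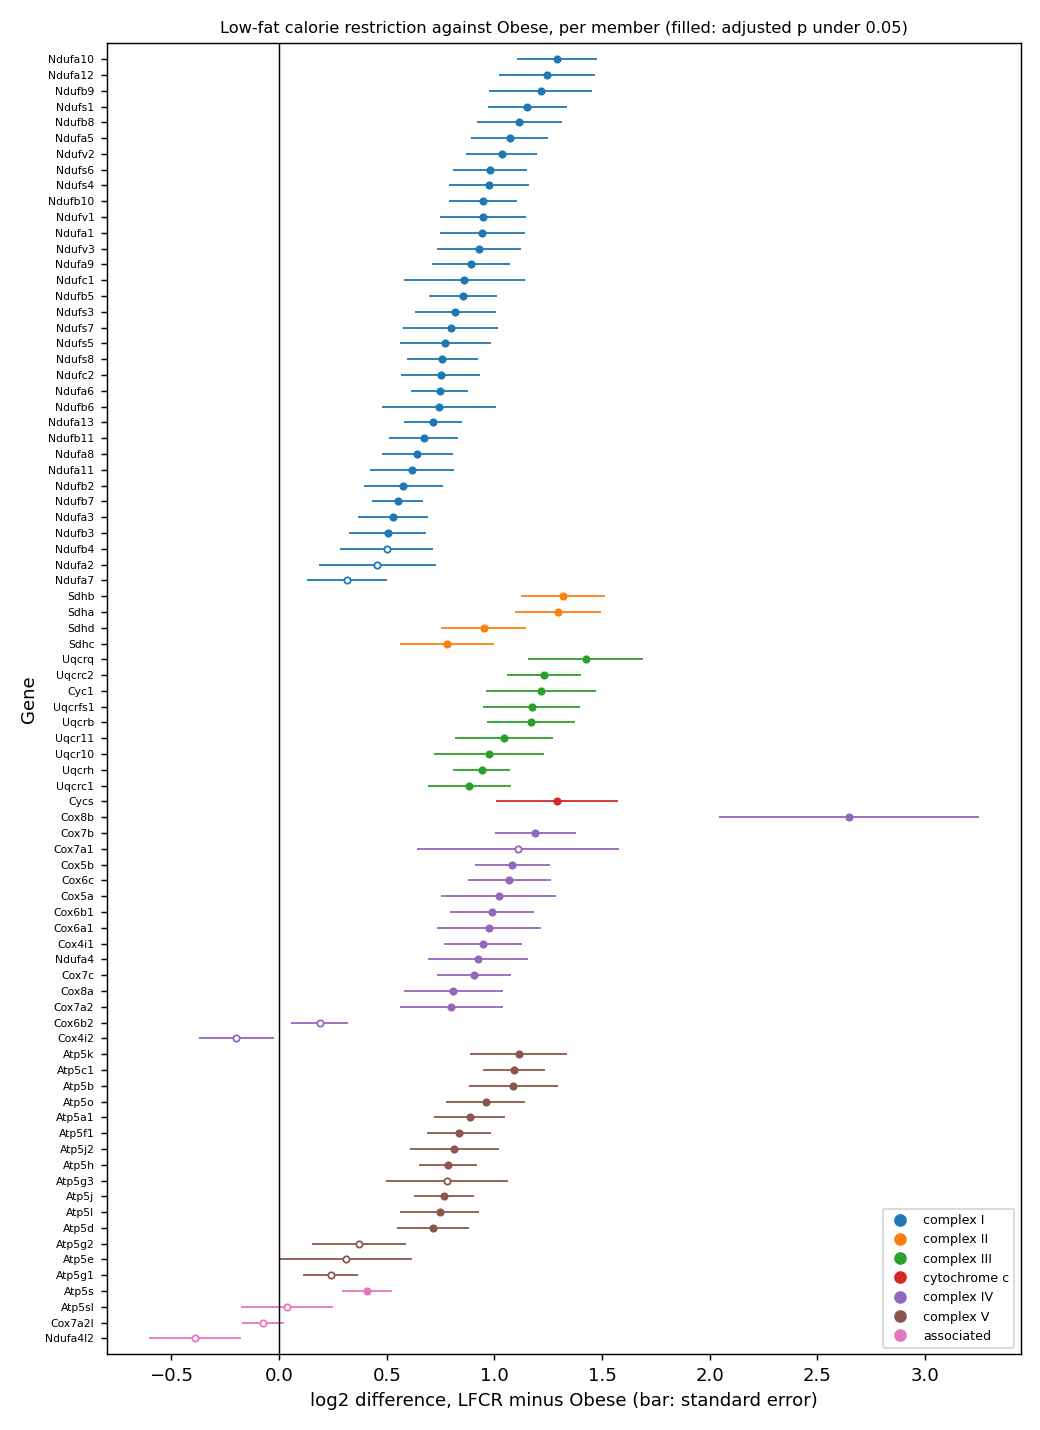
Log2 difference of 82 of the 83 members, LFCR minus Obese, with its standard error, grouped and coloured by complex and sorted within each. Filled points have an adjusted p under 0.05. Nearly all points lie right of 0, Cox8b lies farthest right at 2.65, and the open points include all but 1 of the associated genes.

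At the entry of electrons, the core subunits of complex I and complex II moved together. Ndufs1, the largest iron-sulphur subunit of complex I, had 3341, 2477, 2959, 2738 and 3186 normalized counts in the Obese libraries and 6667, 7785, 7411, 6357 and 4879 in the LFCR ones. The lowest LFCR library was above the highest Obese library, and the log2 difference was 1.15 ± 0.18 (SE, adjusted p = 8.74e-05). Ndufs3, another core subunit, rose by 0.82. Ndufv1 and Ndufv2, which bind NADH and take its electrons, rose by 0.95 and 1.03. The complex I subunits that did not pass the test were the accessory subunits Ndufb4, at 0.50 ± 0.22 (SE, adjusted p = 0.102), Ndufa2, at 0.46, and Ndufa7, at 0.32. They are named after their values were seen. Ndufa2 had 1423, 908, 1052, 1006 and 1401 counts in Obese and 847, 2172, 1737, 1882 and 1593 in LFCR, so that LFCR 1 was below every Obese library and the other 4 were above all of them. Without LFCR 1 it was at 0.67 ± 0.26 (SE, adjusted p = 0.0776), Ndufa7 had an adjusted p of 0.115 and Ndufb4 of 0.0763, and Ndufb4 passed without Obese 1 (adjusted p = 0.0394), all by limma.

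For complex II, the counts of Sdha were 7711, 7261, 14135, 14322 and 14931 in Control, and 11105, 7932, 8903, 8853 and 10328 in Obese. They were 10146, 12900, 12167, 15799 and 17356 in LFD and 23767, 26903, 26326, 22170 and 17239 in LFCR. They were 24338, 13853, 22643 and 19716 in MCR and 15971, 16538, 15138, 14086 and 12404 in ICR. LFCR and ICR lay wholly above Obese, MCR did too, LFD overlapped it through LFD 1, and Control spanned the Obese range. The log2 difference of LFCR from Obese was 1.29 ± 0.20 (SE, adjusted p = 6.17e-05). Sdhb, the iron-sulphur subunit, rose by 1.32 ± 0.20 (SE, adjusted p = 4.35e-05), with counts of 1919 to 2743 in Obese and 4468 to 6839.7 in LFCR. The membrane anchors Sdhc and Sdhd rose by 0.78 and 0.95.

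Complex III rose as a whole. Uqcrc2, a core subunit, had 3632, 2853, 3361, 3321 and 3388 counts in Obese and 7826, 9261, 8734, 7529 and 5978 in LFCR. The groups did not overlap, and the log2 difference was 1.23 ± 0.17 (SE, adjusted p = 2.56e-05). Its partner Uqcrc1 rose by 0.88, the Rieske iron-sulphur protein Uqcrfs1 by 1.17 and cytochrome c1, Cyc1, by 1.22. Uqcrq, a small subunit that binds near ubiquinone, had the largest rise after Cox8b, 1.42 ± 0.27 (SE, adjusted p = 4.07e-04), from 1131 to 1815 counts in Obese to 2985 to 4916 in LFCR. Cycs, the soluble cytochrome c that carries electrons from complex III to complex IV, had 2788, 1715, 2149.7, 1564 and 2532 counts in Obese and 6468, 5841, 5921, 4668 and 3538 in LFCR. Again no LFCR library reached down to the Obese range, and the log2 difference was 1.29 ± 0.28 (SE, adjusted p = 0.0018).

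In complex IV the ubiquitous subunits rose by about the same amount. Cox4i1, the common form of the regulatory subunit Cox4, had 7328, 5668, 5933, 5552 and 7186 counts in Obese and 11285, 14427, 13598, 12008 and 9930.3 in LFCR, without overlap, a log2 difference of 0.95 ± 0.18 (SE, adjusted p = 5.48e-04). Cox5a and Cox5b rose by 1.02 and 1.08, Cox6a1 by 0.98, Cox7a2 by 0.80, Cox8a by 0.81 and Ndufa4, once counted to complex I, by 0.92. The complex IV genes that did not pass were all minor isoforms: Cox4i2 at -0.20 ± 0.17 (SE, adjusted p = 0.46), Cox6b2 at 0.19 and Cox7a1 at 1.11 ± 0.47 (SE, adjusted p = 0.0946). Cox7a1 had 17.1 to 49.4 counts in Obese and 48.2 to 147 in LFCR, so the groups overlap through LFCR 1 (48.2) and Obese 1 (49.4).

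In complex V the catalytic subunits rose, and the genes that did not pass were those of the c subunit and Atp5e, for all of which LFCR 1 lay apart from the other LFCR libraries. Atp5b had 17146, 17580, 33649, 32985 and 31044 counts in Control and 30106, 20887, 23856, 21272 and 27044 in Obese. It had 22074, 30897, 26849, 37510 and 39773 in LFD and 49699, 58781, 61649, 51906 and 40213 in LFCR. It had 58602, 31516, 55884 and 49442 in MCR and 36947, 39779, 32293, 31721 and 31097 in ICR. LFCR stood clear of Obese, Control and LFD here, while MCR 2 lay among the lower groups, and LFCR differed from Obese by 1.09 ± 0.21 (SE, adjusted p = 4.66e-04). Atp5a1 and Atp5c1, the alpha and gamma subunits, rose by 0.88 and 1.09. The c subunit that forms the rotor ring comes from 3 genes that encode the same mature protein, and with all libraries none of them passed: Atp5g1 at 0.24 ± 0.13 (SE, adjusted p = 0.2), Atp5g2 at 0.37 and Atp5g3 at 0.78 ± 0.28 (SE, adjusted p = 0.0501). The 95% interval of Atp5g3 was 0.20 to 1.36, which holds the median rise of the members, and Atp5g3 did pass against Control at 0.81 ± 0.28 (SE, adjusted p = 0.0291). Atp5e, the epsilon subunit, was at 0.31 with an adjusted p of 0.52. Atp5g3 had 5638, 3654, 4339, 3915 and 5046 counts in Obese and 4041, 11102, 8834, 9366 and 7205 in LFCR. Atp5g2 had 1319, 1338, 1211, 1423 and 1463 in Obese and 921, 2106, 2157, 2016 and 1934 in LFCR. In Atp5g1 LFCR 1 had 747 counts and the other LFCR libraries 1026 to 1116, against 725 to 924 in Obese, and in Atp5e they had 981 and 2333 to 3049, against 1555 to 1891. In each of these genes LFCR 1 was within or below the Obese range and the other 4 LFCR libraries were above it. Without LFCR 1, Atp5g3 passed at 1.01 ± 0.27 (SE, adjusted p = 0.0105) and Atp5g2 at 0.60 ± 0.19 (SE, adjusted p = 0.0307), while Atp5g1 was at 0.34 ± 0.12 (SE, adjusted p = 0.0577) and Atp5e at 0.59 ± 0.29 (SE, adjusted p = 0.166). Atp5g3 also passed without Obese 1 (adjusted p = 0.0446). LFCR 1 is among the libraries low in B cell transcripts, as is LFCR 3, which had 2157 counts of Atp5g2 and 2394.5 of Atp5e. Atp5e was also low in LFD 1 (773 counts), which is in that set, and in ICR 3 and 4 (841 and 842), which are not. In Atp5g2, ICR 3 had 862 counts and ICR 4 had 1745. The part that low B cell transcripts play was not tested. By share of the ring's transcripts per kilobase, Atp5g3 took 67.6% ± 3.749 (SD, n = 5) in Obese, 73.7% ± 2.58 (SD, n = 5) in LFCR and 73.3% ± 2.81 (SD, n = 4) in MCR, and Atp5g2 took 26.8% ± 3.56, 21.9% ± 2.13 and 22.7% ± 2.59.

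Cell type markers were counted in the same comparison, and their part in the result was not tested. Of 12 mature adipocyte markers, 7 rose in LFCR and 1 fell: the adipokine complement factor D, Cfd, rose by 2.22 ± 0.37 (SE, adjusted p = 1.24e-04), the insulin-responsive glucose transporter Slc2a4 by 2.08 and resistin, Retn, by 1.99, and leptin, Lep, fell by 2.44. The list mean was 14.83 to 16.00 in Obese and 15.77 to 16.52 in LFCR. Of 8 macrophage markers 6 fell, among them Itgam by 1.57, and the list mean was 10.38 to 11.33 in Obese and 9.36 to 10.31 in LFCR. None of the 10 skeletal muscle, 10 luminal epithelial, 10 B cell or 8 T cell markers passed in LFCR against Obese by limma. With the adipocyte list mean as a covariate, 48 members rose and 1 fell, with the thermogenic list mean 50 rose, and without the 8 libraries low in B cell transcripts 75 rose, 69 of them among the original 70. Leaving out 1 LFCR or Obese library at a time left 63 to 72 called.

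Most subunits were also higher after Mediterranean-style restriction. Against Obese, 62 of 83 members rose and none fell in MCR, where 6.66% of all genes rose and 5.69% fell. The median member was 0.79 higher (1.73-fold), against -0.04 over all genes. All of complexes II and III and cytochrome c rose, with 25 of 35 subunits of complex I, 12 of 15 of complex IV and 11 of 15 of complex V, and no associated gene passed. Cox8b led again with 2.46 ± 0.64 (SE, adjusted p = 0.0122), followed by Uqcrq with 1.20 and Sdhb with 1.12 ± 0.21 (SE, adjusted p = 0.00104). Sdha rose by 1.07, Ndufs1 by 0.95, Uqcrc2 by 1.01, Cycs by 0.94, Cox4i1 by 0.86 and Atp5b by 0.96. The genes at the other end were Ndufa4l2 at -0.35 ± 0.23 (SE, adjusted p = 0.348), Cox4i2 at -0.28 and Atp5sl at -0.08. In 55 members every MCR library was above every Obese library, against 6.42% of all genes, and in the 3 lanes with both groups 79 to 81 members were higher in MCR.

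The MCR group rests on 4 libraries that differed among themselves. The mean over all members was 11.36 to 11.68 in MCR 1, 3 and 4, which are low in B cell transcripts, and 10.99 in MCR 2, which is not. In Obese the libraries low in B cell transcripts were also higher, 10.83 and 10.86 against 10.42 to 10.59, whereas in LFCR the low libraries (11.27 and 11.65) fell within the range of the others (11.22 to 11.76) and LFD 1 was the lowest of its group (10.44 against 10.77 to 11.28). Without the 8 libraries low in B cell transcripts no member passed in MCR against Obese, with 1 MCR library left, and without the 7 libraries high in muscle transcripts 13 rose. Leaving out MCR 1 gave 35 and leaving out MCR 3 gave 41. With the adipocyte covariate 51 rose and 1 fell. Its list mean was 15.06 in MCR 2 and 16.04 to 16.22 in the other MCR libraries, and 4 of the 12 adipocyte markers rose in MCR and 1, Lep, fell, while 4 of 8 macrophage markers fell.

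Intermittent restriction and the unrestricted low-fat diet moved few members past the test. These comparisons share the Obese libraries with the ones above, so their values are given side by side and not as separate support. Against Obese, 8 members rose and 1 fell in ICR, where 3.99% of all genes rose and 5.23% fell, with a median of 0.28 over the members and 0.0046 over all genes. Those that rose were Sdha (0.66), Sdhb (0.67), the complex I accessory subunits Ndufa10 (0.66), Ndufa12 (0.71) and Ndufb10 (0.51), the complex III subunits Uqcrc2 (0.59) and Uqcrh (0.51), and Atp5c1 (0.64). The mean over all members was 10.83 to 11.09 in ICR, against 10.42 to 10.86 in Obese, but single members were less even. ICR 3 and 4 had 841 and 842 counts of Atp5e, against 2022 to 2257 in the other ICR libraries. For Ndufa12 they had 1989.5 and 2317 counts, against 1126 to 1409.5. Leaving out 1 ICR or Obese library at a time left 2 to 9 members called. Of 8 macrophage markers 4 fell in the same comparison (list median -0.63), 3 of 12 mature adipocyte markers rose and 1 fell, and 2 of 6 endothelial markers fell, and their part in the result was not tested. In the 4 lanes with both groups, 48 to 80 members were higher in ICR, with medians of 0.03 to 0.70. In 15 members every ICR library was above every Obese library, against 4.32% of all genes. The count was 17 without the libraries low in B cell transcripts, 1 with the luminal epithelium covariate and 0 without the libraries high in muscle transcripts, so it depends on the libraries and terms used. Cox8b in ICR, with 478, 229, 168, 531 and 321 counts, was above every Obese library, but its log2 difference of 1.68 ± 0.60 (SE, adjusted p = 0.0816) did not pass.

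In LFD, 2 members rose against Obese, Cox8b and Uqcrh, and Ndufa4l2 fell, where 2.7% of all genes rose and 3.28% fell. The median member was 0.27 higher, and 79 of 83 had a positive difference, and 22 had an unadjusted p under 0.05, as did 20.4% of all genes. In lane 6, which sets LFD 1 against Obese 1, 13 members were higher in LFD (median -0.42). In the other 3 lanes with both groups 74 to 81 were (medians of 0.18 to 0.55). Cox8b had 92.5, 334, 638, 1134 and 1132 counts in LFD, with LFD 1 inside the Obese range and LFD 3, 4 and 5 highest, and its log2 difference was 2.28 ± 0.60 (SE, adjusted p = 0.0258). That call was lost in 11 of the alternative fits, among them those without LFD 3, 4 or 5 or without Obese 1 or 5. Uqcrh, the hinge protein between cytochromes c1 and c, differed by 0.50 ± 0.13 (SE, adjusted p = 0.0259). Sdha was at 0.52 ± 0.20 (SE, adjusted p = 0.125) and Atp5b at 0.33 ± 0.21 (SE, adjusted p = 0.399). Of the 10 luminal epithelial markers 7 rose in LFD against Obese, and with that list as a covariate no member passed. Of 12 mature adipocyte markers 1 rose and 1 fell, and 1 of 8 thermogenic markers rose. A further 1 of 8 macrophage and 1 of 6 endothelial markers fell, and the part of these markers was not tested. With the adipocyte covariate 16 members rose and 1 fell, and the share of all genes called in that fit is not given here.

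Ndufa4l2 was the member that rose in Obese, and it fell in LFD and ICR. After weight loss it had 127, 158, 77.1, 106 and 94.8 counts in LFD and 159, 195, 221, 159 and 145 in LFCR. It had 257, 100.3, 218 and 182 in MCR and 146, 148, 116, 138 and 149 in ICR. ICR lay wholly below Obese, as did 4.52% of all genes, and LFD, LFCR and MCR overlapped it. It fell against Obese in LFD by 0.95 (adjusted p = 0.0101) and in ICR by 0.67 (adjusted p = 0.0492), and LFCR and MCR were at -0.39 ± 0.21 (SE, adjusted p = 0.209) and -0.35. Its difference from Control was 0.67 ± 0.21 (SE, adjusted p = 0.0186) in LFCR and 0.72 ± 0.23 (SE, adjusted p = 0.0253) in MCR. Set against its relative Ndufa4 per kilobase of exon, it made up 9.53% ± 1.504 (SD, n = 5) of the pair in Obese, and 4.23% ± 0.925 (SD, n = 5) in Control. It made up 4.30% ± 2.02 in LFD, 3.92% ± 0.590 in LFCR, 4.78% ± 0.736 in ICR (SD, n = 5 each) and 4.04% ± 0.532 in MCR (SD, n = 4). The Obese libraries ran from 7.50% to 11.7%, above every other library (at most 7.35%, in LFD). A count over all genes is not given for such pair shares. Ndufa4 itself passed as higher in LFCR and MCR, against Obese and against Control. The low shares in LFCR and MCR therefore hold that rise too, and do not mean that Ndufa4l2 was back at the Control level.

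Most subunits were above the lean level after continuous restriction. In LFCR 71 of 83 members rose against Control and none fell, where 20.1% of all genes rose and 18% fell. The median was 0.80 (1.74-fold) against -0.03 over all genes. Uqcrq (1.23), Ndufb9, an accessory subunit of complex I (1.14), and Cycs (1.10) had the largest differences, and Sdha differed by 1.05 ± 0.20 (SE, adjusted p = 9.01e-04). Cox8b did not pass against Control, at 0.65 ± 0.60 (SE, adjusted p = 0.391), nor did Cox7a1 at 0.45 or Cox5a at 0.65. In 52 members every LFCR library was above every Control library, against 12.2% of all genes. The mature adipocyte list moved too: 11 of its 12 markers rose, the list mean was 13.96 to 15.46 in Control and 15.77 to 16.52 in LFCR, and with it as a covariate no member passed. Of other lists, 5 of 8 macrophage and 2 of 10 luminal epithelial markers fell. There were also 2 of 8 thermogenic and 1 of 6 endothelial markers that rose. The part of these markers in the result was not tested. In the 4 lanes with both groups, 77 to 80 members were higher in LFCR.

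In MCR 70 members rose against Control and none fell, where 13.9% of all genes rose and 15.7% fell, with a median of 0.69. The largest were Uqcrq (1.01), Ndufb9 (1.00) and Ndufv3, an accessory subunit of complex I (0.92), and Cycs, at 0.76 ± 0.30 (SE, adjusted p = 0.0587), was the carrier that did not pass. Within lanes the difference was uneven. In lane 4, which sets MCR 2 against Control 3, 38 members were higher in MCR (median -0.01), and 76 to 81 were in the other 3 lanes with both groups. Markers of other cells moved in the same comparison: all 10 B cell markers (list median -4.73), all 8 T cell markers (-3.06) and 2 of 8 macrophage markers fell, and 9 of 12 mature adipocyte markers (1.16) and 2 of 6 endothelial markers rose. Of 8 thermogenic markers 2 rose and 1 fell. The B cell list mean was 5.86 to 12.4 in MCR and 11.5 to 12.8 in Control, and the part of these markers in the result was not tested. A count of 7 members had every MCR library above every Control library, against 4.08% of all genes, and MCR 2 lay at a member mean of 10.99, against 11.03 to 11.07 in Control 3, 4 and 5. The count was 0 in the fit of MCR and Control alone, 0 with the adipocyte covariate, 0 without the libraries low in B cell transcripts and 0 without those high in muscle transcripts, and leaving out 1 library gave 3 (without MCR 3) to 75. In LFD and in ICR no member differed from Control after adjustment by limma, where 0% of all genes rose and 0% fell in LFD, and 3.69% rose and 0.882% fell in ICR. At an unadjusted p under 0.05 there were 3 members in LFD, against 12.5% of all genes, and 8 in ICR, against 24.6%. Within the 4 lanes that hold both groups, 3 to 80 members were higher in LFD and 22 to 79 in ICR. The median differences over all libraries were 0.19 and 0.21, and voom on the recovered reads also called none in either.

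**Figure D3:**
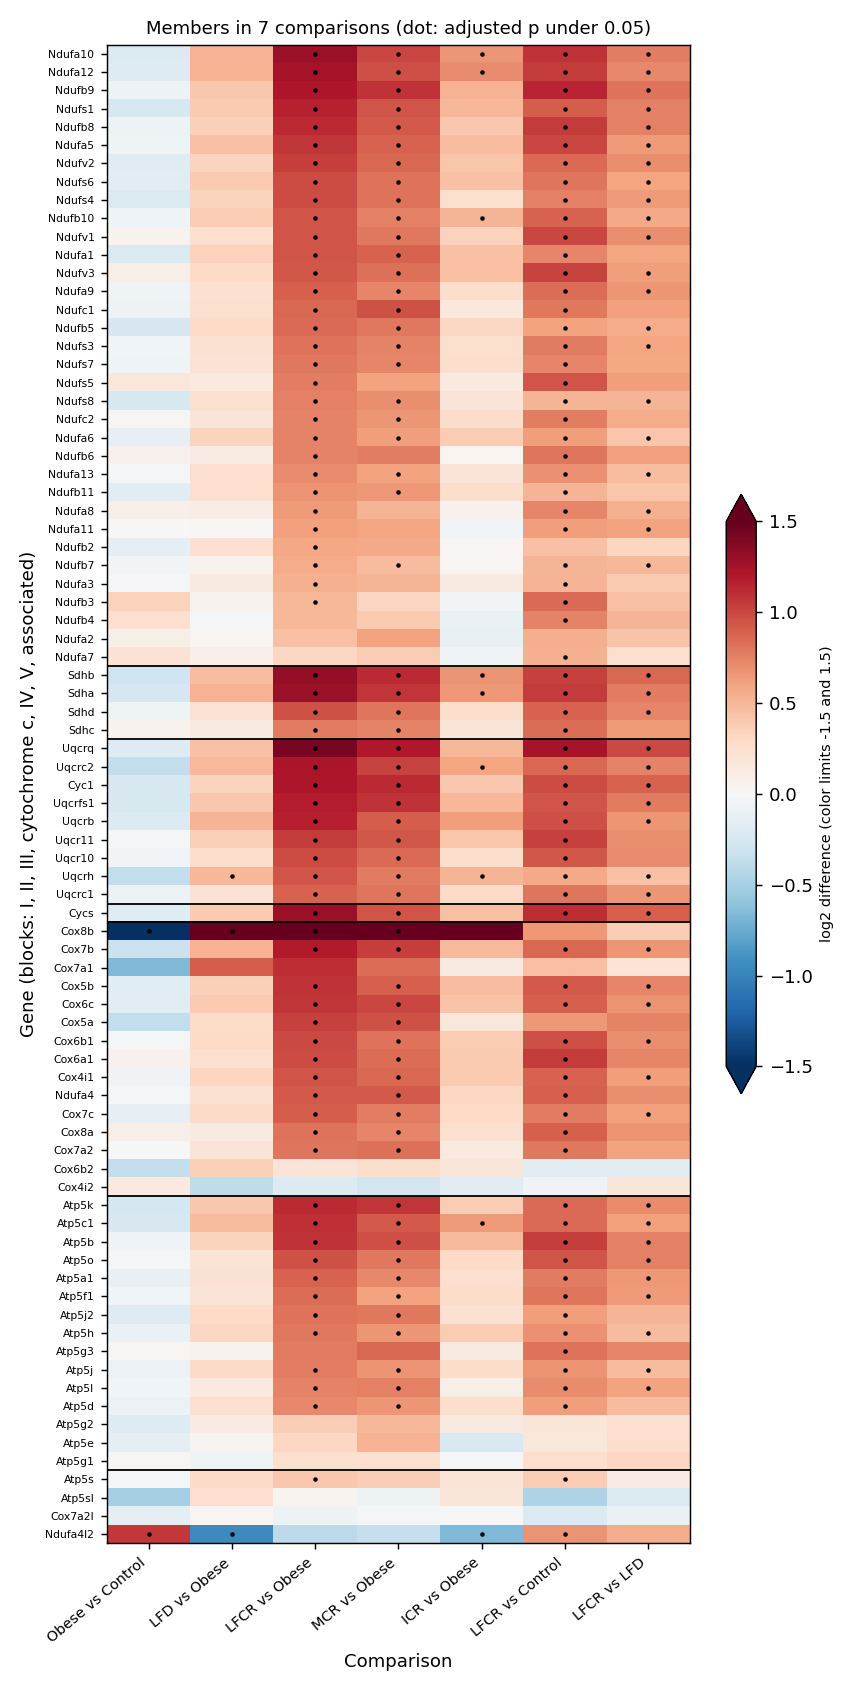
Log2 difference of 82 of the 83 members in 7 comparisons, ordered by complex and, within it, by the LFCR minus Obese difference. Red is higher in the first group, blue lower, and a dot marks an adjusted p under 0.05. Dots fill most of the LFCR and MCR columns against Obese, where 70 and 62 of all 83 members passed, and are few in the columns for Obese against Control (2), LFD against Obese (3) and ICR against Obese (9).

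Calorie restriction was compared with weight loss on low-fat food without restriction. In LFCR against LFD 48 of 83 members rose and none fell, where 6.29% of all genes rose and 3.32% fell, with a median of 0.62. They were 22 of 35 subunits of complex I, 3 of 4 of complex II, 7 of 9 of complex III, cytochrome c, 6 of 15 of complex IV and 9 of 15 of complex V. Sdhb differed by 0.86 ± 0.20 (SE, adjusted p = 0.0131), Uqcrq by 0.99 ± 0.27 (SE, adjusted p = 0.0243), Cyc1 by 0.88 and Cycs by 0.89. Cox8b was at 0.37 ± 0.60 (SE, adjusted p = 0.724), with a 95% interval of -0.87 to 1.61, and did not pass. The count moved with the libraries: it was 3 without LFD 1, 9 without LFD 3, 7 without LFCR 2, 11 without LFCR 3, 26 without LFCR 4 and 29 without LFCR 1. It was 0 with the luminal or adipocyte covariate and 10 with the lane as a term. Luminal epithelial markers differed in the same comparison, with 9 of 10 lower in LFCR. Of 8 macrophage markers 4 were lower, and 1 of 12 mature adipocyte and 1 of 6 endothelial markers were higher. The part of these markers in the result was not tested. In the 4 lanes with both groups, 32 to 81 members were higher in LFCR, with medians of -0.05 to 0.91.

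In MCR against LFD no member passed by limma or voom, where 0.165% of all genes rose and 0.129% fell, although 65 members had an unadjusted p under 0.05, as did 17.1% of all genes. The median was 0.51, and Sdhb was at 0.66 ± 0.21 (SE, adjusted p = 0.128), with a 95% interval of 0.23 to 1.09. Without MCR 2, 50 members passed, and the share of all genes called in that fit is not given here. In the 3 lanes with both groups 77 to 81 members were higher in MCR. In ICR against LFD none passed by limma or voom and none reached an unadjusted p under 0.05, which 8.62% of all genes did, where 0.0206% of all genes rose and 0.0103% fell, with a median of 0.04. Sdhb was at 0.21 ± 0.20 (SE, adjusted p = 0.905). Intermittent and continuous restriction were compared directly in a contrast added after the data were seen. No member passed in ICR against LFCR, where 0% of all genes rose and 0% fell, although 72 of 83 had an unadjusted p under 0.05, as did 12.4% of all genes, with a median of -0.59. Sdha was at -0.64 ± 0.20 (SE, adjusted p = 0.194), with a 95% interval of -1.05 to -0.23, and 34 members had every ICR library below every LFCR library, against 2.69% of all genes. Against MCR the median was -0.47 and none passed by limma or voom, where 0.00516% of all genes rose and 0% fell. An unadjusted p under 0.05 was found in 55 members, against 15.3% of all genes. Without MCR 2, 30 members fell, and the share of all genes called in that fit is not given here.

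Complex IV has subunits with a ubiquitous and a tissue form. Per kilobase of exon, the ubiquitous form took at least 84.7% of the transcripts in every library for Cox4, Cox6a, Cox6b and Cox7a, and the muscle form Cox8b reached 24.3% of the Cox8 pair in Control. In Obese, Cox8b made up 2.88% ± 1.08 (SD, n = 5) of the pair, with 1.60% to 4.34% in single libraries, and in Control 14.7% ± 8.62 (SD, n = 5), with 3.13% to 24.3%. It made up 15.0% ± 8.22 in LFD, 11.8% ± 4.61 in LFCR, 8.72% ± 2.79 in ICR (SD, n = 5 each) and 10.6% ± 2.32 in MCR (SD, n = 4). Every ICR, LFCR and MCR library was above every Obese library in this share, and LFD 1, at 4.31%, was not. A count over all genes is not given for this share either. The Cox8b counts behind it were 244, 1093, 1209, 799 and 420.5 in LFCR and 795, 494, 509 and 505 in MCR, with fitted differences from Obese of 2.65 ± 0.60 (SE, adjusted p = 0.0024) and 2.46. Cox8a counts were 3895 to 6637 in Obese and 7119.5 to 10670 in LFCR. Cox6a2, the muscle form of Cox6a that missed the level for membership, had 14.1 to 178 counts in Obese, with the highest in Obese 2, a library high in muscle transcripts, and 0 to 32.6 in LFCR.

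Cox8b is often read with Ucp1 as a sign of thermogenic fat, and is set beside it here. Ucp1 counts were 128, 20.4, 1055, 119 and 3648 in Control and 1.95, 25.6, 621, 2484 and 2879 in LFD. They were 156, 32.1, 20.5, 1.49 and 25.9 in Obese and 4.02, 48.6, 39.7, 51.2 and 11.5 in LFCR. They were 34.1, 34.7, 7.25 and 3.03 in MCR and 2.66, 0, 8.62, 3.07 and 4.93 in ICR. Ucp1 was high in Control 3 and 5 and in LFD 3, 4 and 5, where Cox8b had 638 counts or more, but LFCR, MCR and ICR held Cox8b of 168.1 to 1209 counts with at most 51.2 counts of Ucp1. Of the 8 thermogenic markers 2 rose in LFCR against Obese, Cidea by 3.68 ± 0.79 (SE, adjusted p = 0.00151) and the coactivator Ppargc1a by 1.69 ± 0.28 (SE, adjusted p = 1.51e-04), and both rose in MCR, by 2.64 and 2.26. Ucp1 itself was at -0.12 ± 1.12 (SE, adjusted p = 0.954) in LFCR. Cox8b and Cox7a1 are also genes of oxidative muscle, and none of the 10 skeletal muscle markers passed in LFCR or MCR against Obese by limma. Their list mean spread widely, from 5.07 to 9.80 in LFCR, 4.91 to 8.34 in MCR and 5.39 to 11.5 in Obese. The muscle creatine kinase Ckm, 1 of these markers, was at or below 4.10 counts in every Control library, and the others are not given for Control here. The muscle form Cox6a2 had 14.5 to 54.1 counts in Control. The part of muscle in the Cox8b and Cox7a1 values was not tested.

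**Figure D4:**
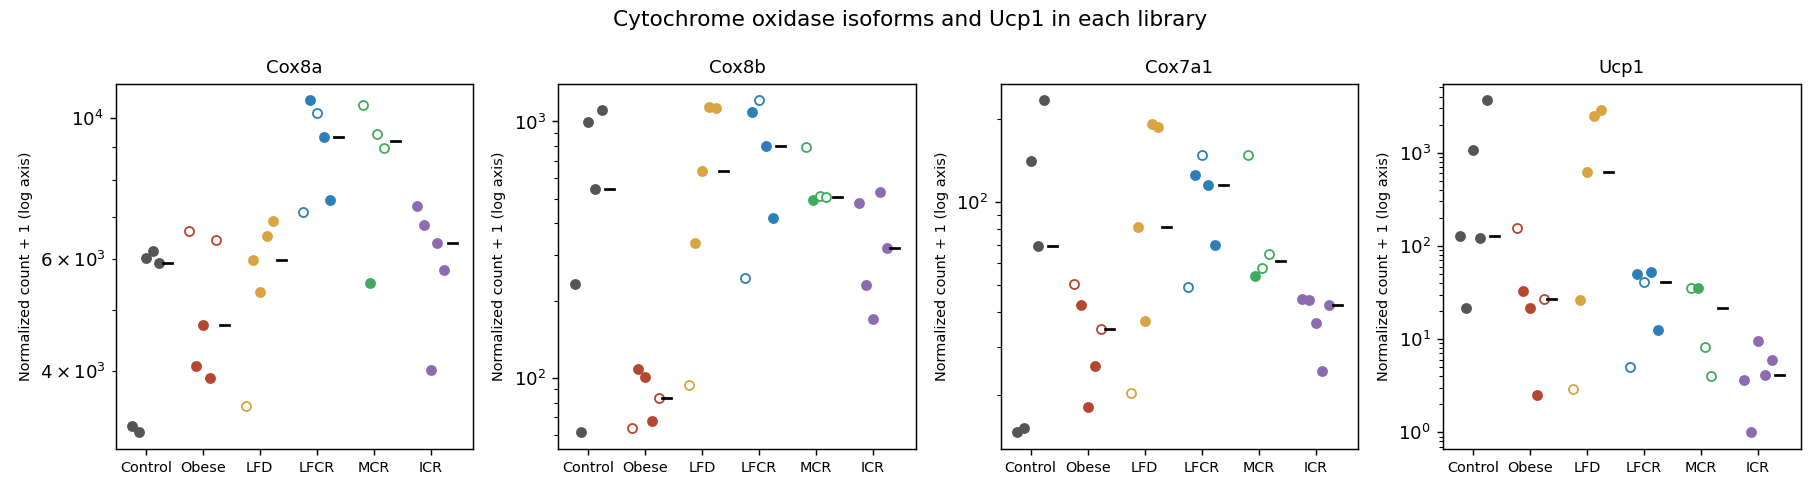
Normalized counts plus 1, on log axes, of Cox8a, Cox8b, Cox7a1 and Ucp1 in each library, with 1 point per library and a dash at the group median; open points are the 8 libraries low in B cell transcripts. The 5 Obese libraries are the lowest group for Cox8b (62.8 to 107 counts), and Ucp1 passes 600 counts in 2 Control and 3 LFD libraries but in none of the restricted groups.

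Genes that build or serve the chain were counted in the same fit, from lists chosen with earlier results of these data known. In LFCR against Obese, where 11.9% of all genes rose and 9.42% fell, 9 of 13 complex I assembly factors rose (median 0.55), among them Foxred1 (0.63), Ndufaf4 (0.64), Ndufaf7 (0.67) and Ecsit (0.70). For complex II it was 2 of 4, Sdhaf3 (0.50) and Sdhaf1 (0.37). For complex III it was 5 of 6 (median 0.41), among them Bcs1l, which inserts the Rieske protein, at 0.83 ± 0.13 (SE, adjusted p = 6.06e-05), and Lyrm7 at 1.01. For complex IV it was 11 of 20 (median 0.35), among them Cox20 at 0.74 and Lrpprc, which steadies mitochondrial messenger RNA, at 0.46. For complex V, Atpaf1, Atpaf2 and Tmem70, which assemble the synthase, rose by 0.49, 0.56 and 0.75, and Atpif1, its inhibitor, fell by 0.38. The medians of these lists were lower than that of the subunits, 0.89, which is a description and not a test.

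Ubiquinone synthesis and the enzymes that feed it electrons were also counted: 10 of the 12 ubiquinone genes in the table rose (median 0.68), with Coq9 at 1.27 ± 0.21 (SE, adjusted p = 1.51e-04), Pdss2 at 0.75, Coq5 at 0.72 and Coq10a at 0.58. Of 6 genes for other electron entry, 5 rose (median 0.82), and Gpd2, the mitochondrial glycerol 3-phosphate dehydrogenase, stood out at 2.55 ± 0.34 (SE, adjusted p = 1.55e-05). In MCR Gpd2 rose by 1.97 ± 0.36 (SE, adjusted p = 9.35e-04), with 7 of 12 ubiquinone genes and 4 of 6 electron entry genes. Of 9 carriers and channels 5 rose and 1 fell: the voltage-dependent channels Vdac1 and Vdac2 rose by 0.70 and 0.40, the ATP carrier Slc25a5 by 0.58 and Ucp3 by 1.63, and Ucp2, which macrophages also express, fell by 0.81. Of 15 regulators of mitochondrial transcription and biogenesis 5 rose and 1 fell (median 0.10). The coactivators Ppargc1a and Ppargc1b rose by 1.69 and 1.18 and the nuclear receptor Esrra, with which they act, by 0.75 ± 0.16 (SE, adjusted p = 0.00116), and Pprc1 fell by 0.51. Nrf1, at -0.17, Gabpa, at 0.01, and Tfam, at 0.10, did not pass, and are named after their values were seen because Nrf1 and Gabpa bind motifs counted above. In LFD against Obese, no gene of the regulator, ubiquinone, electron entry or carrier lists passed by limma, where 2.7% of all genes rose.

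**Figure D5:**
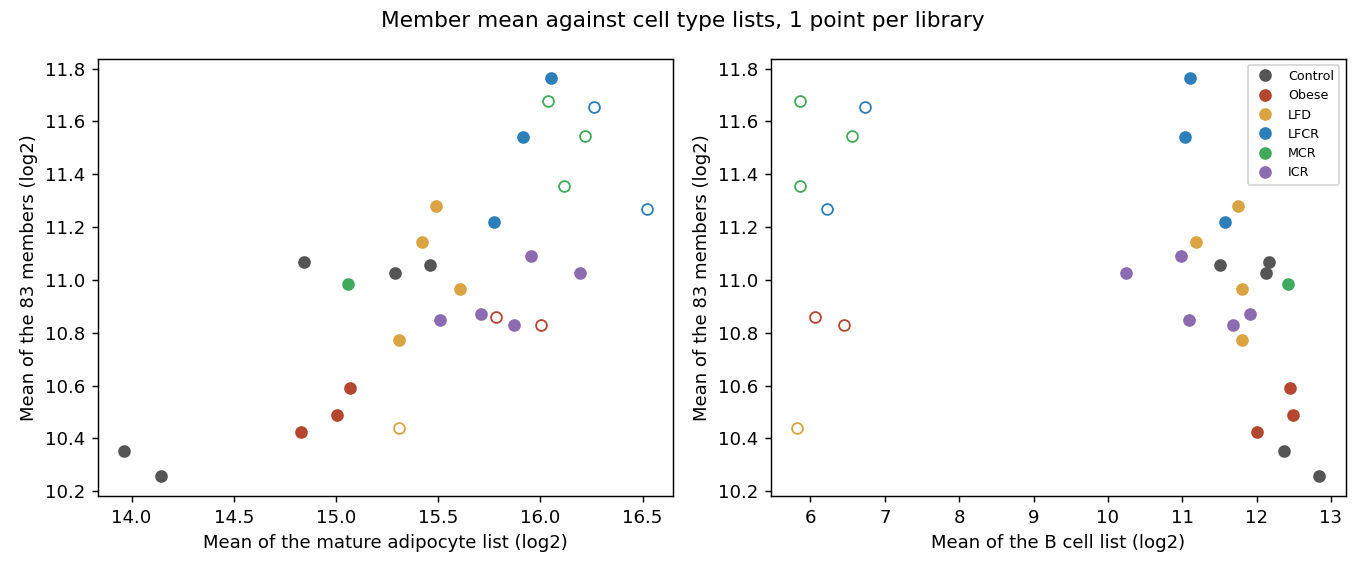
Mean deposited log2 value over the 83 members in each library against the mean over the mature adipocyte list (left) and the B cell list (right), with 1 point per library coloured by group; open points are the 8 libraries low in B cell transcripts. The LFCR libraries sit at 11.2 to 11.8 on the vertical axis and the Obese libraries at 10.4 to 10.9. At adipocyte list means near 16, Obese 1 and 5, both open points, lie below the LFCR and MCR libraries.

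Across the libraries, the member mean was set against the adipocyte list and is shown without a correlation, because the groups form clusters on both axes. Obese 1 and 5 had adipocyte list means of 15.78 and 16.00 and member means of 10.86 and 10.83, whereas LFCR 5, 4 and 2, at 15.77, 15.92 and 16.05, had member means of 11.22, 11.54 and 11.76. At like list means these LFCR libraries had higher member means, by differing amounts and least in LFCR 5, a comparison with no test. Obese 1 and 5 are low in B cell transcripts, and LFCR 2, 4 and 5 are not. Of the 12 markers in the list, 7 rose and 1 fell in LFCR against Obese, so like list means need not be like adipocyte content. ICR libraries had adipocyte means of 15.51 to 16.19 and member means of 10.83 to 11.09.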

How the data were processed

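RNA sequencing libraries were made from 29 samples of mouse mammary fat in 6 groups, with TRIzol extraction and a stranded total RNA kit, read as pairs of 76 bases on a HiSeq 2000, per the labels' protocols. The submitters' processing notes name TopHat2 2.0.7, HTSeq 0.5.3p9, DESeq2 and the build mm10; which annotation and which counting options were used is not given in the sources used here. Values in the table that the authors deposited are on a log2 scale, with 1 lowest value shared by all libraries, which has the form of a variance-stabilising transform of size-factor normalized counts; no source states this. Undoing that transform gave whole reads for 100% of values in each library (within 0.01 of a whole number), from which library totals and normalized counts were taken. Arithmetic on whole reads was used for these totals and for 1 alternative fit.

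Genes with a normalized count of 10 or more in at least 4 libraries, 19387 in all, were fitted with limma 3.58.1 in R 4.3.3 (1 mean per group, trend and robust variance with statmod 1.5.0), and p-values were adjusted over these genes by Benjamini-Hochberg, with a threshold of 0.05. On simulated data for Obese against Control over 19387 genes, 65 of 100 genes changed by 1 on the log2 scale and 94 of 100 changed by 2 were recovered, with 6 false calls. Each gene was drawn on its own from a negative binomial, and the changed genes were taken from the better expressed ones. Lanes, libraries that stand apart and genes that move together were not simulated, so these figures need not hold for the real data.

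The members, the lists of other genes and the comparisons were chosen with earlier results of these data known. Named genes were those with core, electron-carrying or catalytic roles and the tissue isoforms, plus in each comparison the 3 highest and 3 lowest differences, members that stood alone in their complex and the few leading genes of each list. Alternatives were another filter, no filter, log2 of the normalized count plus 1, voom with trimmed-mean factors, quantile normalization, the compared groups alone, lane as a term, cell list means as covariates, sets of libraries left out and each library left out. The covariates for mature and thermogenic adipocytes, the fit without libraries high in muscle transcripts and the contrasts of ICR with LFCR and MCR were chosen after seeing the data. Gene models came from GENCODE vM21, where 28 of the 82 members found overlap a gene on the other strand; whether the counting used strand is not given in the sources used here. 1 member is counted in the totals and is not reported here on its own.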

Additional observations from a re-analysis of the deposited data

Results flagged for a closer look

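Within groups of 4 or 5 libraries, 1 library lay far from the others in 2 of the 108 groups examined. That is fewer than the about 1 in 20 that chance gives. The groups examined did not cover every member, and LFCR 1 lay apart in Atp5g1, Atp5g2 and Atp5e, as given above. Cox8b in MCR had its highest deposited log2 value, 9.68, in MCR 1, with the nearest library at 9.06 and the lowest at 9.03. Cox7a1 in MCR was also highest in MCR 1, at 7.44, with the nearest library at 6.47 and the lowest at 6.28. MCR 1 is among the libraries low in B cell transcripts, as are MCR 3 and 4, from which it lay apart, and the part this plays was not tested.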

How the results depend on the processing

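Replicate numbers were given in accession order and pair no libraries, so the blocked fit is the one with the sequencing lane as a term, whose counts are given below where they moved. The count of members that passed in LFCR against Obese was 49 to 75 over the alternative fits, and each of them called at least 48 of the original 70. Other counts moved by over 1.5 times. Obese against Control (2): 1 with voom, with the compared groups alone, without the libraries low in B cell transcripts and with the luminal covariate, and 19 with the adipocyte covariate. LFD against Obese (3): 7 with quantile normalization, 17 with the adipocyte and 1 with the thermogenic covariate, and 0 with the compared groups alone, the luminal covariate, or without the libraries low in B cell or high in muscle transcripts. MCR against Obese (62): 0 without the libraries low in B cell and 13 without those high in muscle transcripts. ICR against Obese (9): 17 with the compared groups alone, 5 with the lane term, 17 without the libraries low in B cell transcripts, 1 with the luminal and 22 with the thermogenic covariate, and 0 without those high in muscle transcripts. LFCR against Control (71): 0 with the adipocyte covariate. MCR against Control (70): 0 with the compared groups alone, with the adipocyte covariate and without either set of libraries. ICR against Control (0): 4 without the libraries low in B cell transcripts and 40 with the thermogenic covariate. LFCR against LFD (48): 21 with quantile normalization, 10 with the lane term, 24 with the muscle covariate, and 0 with the luminal or adipocyte covariate or without either set of libraries. MCR against LFD (0): 58 with the thermogenic covariate. ICR against MCR (0): 20 with the adipocyte covariate. Shares of all genes called in the alternative fits of this section are not given here, so these counts need not be particular to the members. The cause of these changes was not tested.

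Leaving out 1 library at a time gave 1 to 3 members in Obese against Control, 1 to 4 in LFD against Obese, 63 to 72 in LFCR, 35 to 70 in MCR and 2 to 9 in ICR against Obese. Against Control it gave 58 to 75 in LFCR, 3 to 75 in MCR (3 without MCR 3, 4 without MCR 1, 21 without Control 1, 22 without Control 2, 44 without MCR 4), 0 to 1 in ICR and 0 to 0 in LFD. Against LFD it gave 3 to 59 in LFCR, 0 to 50 in MCR and 0 to 0 in ICR, and for ICR it gave 0 to 0 against LFCR and 0 to 30 against MCR. The F-test over 6 groups gave 66 to 75.

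Of 4071 pairs of a named gene's result and an alternative, 3166 kept direction and side of the threshold, 901 kept direction and lost the call, and 4 changed sign, all with the adipocyte covariate: against Control, Cox8a in LFCR (-0.013), Ndufa4l2 in LFCR (-0.16), Ndufb4 in LFCR (-0.060) and Ndufb4 in MCR (-0.022). Cox6b2, Cox4i2 and Cox7a1 are the members with the fewest libraries at the level for membership.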
